A study of Mus musculus with 3 samples.

Results

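The cells described here are 310 cells of the corpus, the middle region of the mouse epididymis, in which RNA for the protease inhibitors Spint4 and Spint5 and the defensins Defb23 and Defb29 stood out. They were 6.25% of the 4959 cells in the corpus library (exact Clopper-Pearson 95% interval 5.59 to 6.96%), 10.0% of the 3101 corpus cells past the filters below (8.96 to 11.1%), and part of 14845 cells in 3 libraries. They were chosen by measured values, in 3 steps. A corpus cell had to hold at least 1000 UMIs, the unique molecular identifiers that count each captured mRNA molecule once. It had to hold at most 2 UMIs in all of Krt5, Foxi1, Ptprc, Pecam1 and Dcn, which mark basal, clear, blood-derived, endothelial and fibroblast cells. Its summed UMIs of Spint4, Spint5, Defb23, Defb29 and Spag11a (panel P), per 10000 UMIs of the cell, had to be at least 2 times the mean of all corpus cells, and that fold had to exceed the fold of a second panel, Defb22, Pate1, Bsph2, Defb38 and Car4 (panel Q). The corpus mean was 40.95 UMIs per 10000 for panel P and 43.65 for panel Q. Cells that passed are called P cells. The 691 corpus cells with the same filters whose fold of panel Q was at least 2 and the larger are called Q cells, and the remaining 2100 low-panel cells.

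The study dissected the epididymis of untreated wild-type C57BL/6 mice, aged 56 days, into caput, corpus and cauda and made 1 single-cell library of each. The labels do not say how many animals a library pools. The libraries held 41500792 UMIs in 4961 caput cells, 21495211 in 4959 corpus cells and 18341476 in 4925 cauda cells, with medians of 5067, 2605 and 2094 UMIs per cell. With 1 library per region no difference between groups of cells could be tested over animals. Every interval below is an exact 95% interval that covers counting error only, and differences are described by their size. The corpus library shared 14 barcodes with the caput and 14 with the cauda library, and none of the shared barcodes was that of a P cell.

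The epididymis is a long coiled duct in which sperm leaving the testis mature, and its principal cells secrete the proteins that sperm meet on the way. Each stretch of the duct has its own set of secreted proteins, so that principal cells of neighbouring segments differ more in what they export than in their housekeeping genes. Kunitz domain proteins such as the Spint family are small inhibitors of serine proteases, and Kazal domain (Spink) and WAP domain (Wfdc, Eppin) proteins are other inhibitor families abundant in this duct. Beta-defensins are small cationic secreted peptides, several of which coat sperm, and Spag11 genes encode peptides of a related fold.

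Both inhibitors and both defensins that lead panel P lie on chromosome 2, in 2 groups of related genes. In the GENCODE M21 annotation of GRCm38, Spint4 is a protein-coding gene at chr2:164698501-164702453 on the plus strand and Spint5 lies at chr2:164715305-164718068 on the same strand. Defb23 lies at chr2:152459055-152464620 and Defb29 at chr2:152538714-152540098, both on the minus strand. Spag11a lies on another chromosome, at chr8:19157886-19159578, beside its paralog Spag11b at chr8:19140759-19143010, and reads could be shared between these copies. The 250 bases before the start of 4 of these genes are shown from RefSeq (GRCm38.p6), 5′ to 3′ in the direction of the gene, because each pair holds related genes of 1 stretch of the chromosome, with other genes between them, of which 1 was higher in P cells (Spint4, Defb23) and 1 higher in Q cells (Spint3, Defb22). All of these but Spint3 belong to the panels that chose the cells, so that their directions follow from the choice. Capitals mark AGAACA, the core hexamer of androgen response elements, or TGTTCT, its reverse complement.
Spint4 upstream: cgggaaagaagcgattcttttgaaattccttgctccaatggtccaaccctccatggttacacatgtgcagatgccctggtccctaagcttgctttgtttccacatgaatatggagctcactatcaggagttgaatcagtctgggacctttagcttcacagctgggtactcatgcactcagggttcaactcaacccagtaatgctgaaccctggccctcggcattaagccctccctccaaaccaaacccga
Spint3 upstream: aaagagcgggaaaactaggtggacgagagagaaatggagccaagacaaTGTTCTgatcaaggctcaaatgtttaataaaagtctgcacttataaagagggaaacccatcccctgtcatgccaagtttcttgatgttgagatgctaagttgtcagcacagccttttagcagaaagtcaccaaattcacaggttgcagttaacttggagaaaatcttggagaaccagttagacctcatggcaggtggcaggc
Defb23 upstream: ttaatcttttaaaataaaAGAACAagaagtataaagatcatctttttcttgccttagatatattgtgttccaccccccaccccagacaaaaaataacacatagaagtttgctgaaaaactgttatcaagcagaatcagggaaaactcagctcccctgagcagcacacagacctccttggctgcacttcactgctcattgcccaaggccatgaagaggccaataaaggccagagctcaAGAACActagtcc
Defb22 upstream: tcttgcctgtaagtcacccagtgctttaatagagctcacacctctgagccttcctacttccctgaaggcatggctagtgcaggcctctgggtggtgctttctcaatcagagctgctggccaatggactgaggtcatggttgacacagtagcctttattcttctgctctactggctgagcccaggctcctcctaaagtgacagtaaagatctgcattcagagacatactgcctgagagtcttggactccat
The windows are chr2:164698251-164698500 for Spint4, chr2:164573457-164573706 for Spint3, chr2:152464621-152464870 for Defb23 and chr2:152490139-152490388 for Defb22. AGAACA, searched on both strands, began 232 and 13 bases before the start of Defb23. Spint3 had 1 match, and these letters did not occur in the windows of Spint4 and Defb22, nor in those of Spint5 and Defb29. Of all 32851 RefSeq windows of that length, 16.1% held the hexamer. A match is a description of letters, and 9 of the 10 panel genes had a window in the table.

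Spint4 was the most abundant gene of panel P in these cells. In single P cells it took 0 to 838 UMIs per 10000, with a median of 77.5. The corresponding median was 1.89 in Q cells, with 59.2 in the highest Q cell, so that the groups overlapped at their edges. Summed over cells, Spint4 reached 17340 CPM (UMIs scaled to a total of 1000000 per group) in P cells (17122 to 17559), 278 in Q cells and 440 in low-panel cells. Spint5 reached 8686 CPM in P cells, 378 in Q cells and 306 in low-panel cells, with a median of 55.2 UMIs per 10000 and a range of 0 to 321 over P cells. Both inhibitors were absent from some P cells and took several percent of all RNA in others.

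Of the defensins of the panel, Defb23 was less uneven than both inhibitors and Defb29 was not. Defb23 took 0 to 226 UMIs per 10000 in single P cells, with a median of 54.7, and summed to 7354 CPM, against 1346 in Q cells and 712 in low-panel cells. Defb29 summed to 1485 CPM in P cells, 99.3 in Q cells and 113 in low-panel cells. In single P cells it had a median of 9.58 UMIs per 10000, with quartiles of 3.85 and 19.2. The quartiles were 35.4 and 82.3 for Defb23 and 25.9 and 107 for Spint5. Spag11a, the gene of the Spag11 family in the panel, had a median of 0 and a highest value of 93.2 UMIs per 10000 over P cells, and summed to 562 CPM against 101 in Q cells and 138 in low-panel cells. These differences follow from how the cells were chosen and are given as a description. The genes of panel Q were present at lower levels than in Q cells: Defb22 at 910 against 4187 CPM, Pate1 at 707 against 2794, Bsph2 at 352 against 2198, Defb38 at 855 against 3924 and Car4 at 367 against 918.

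**Figure D1:**
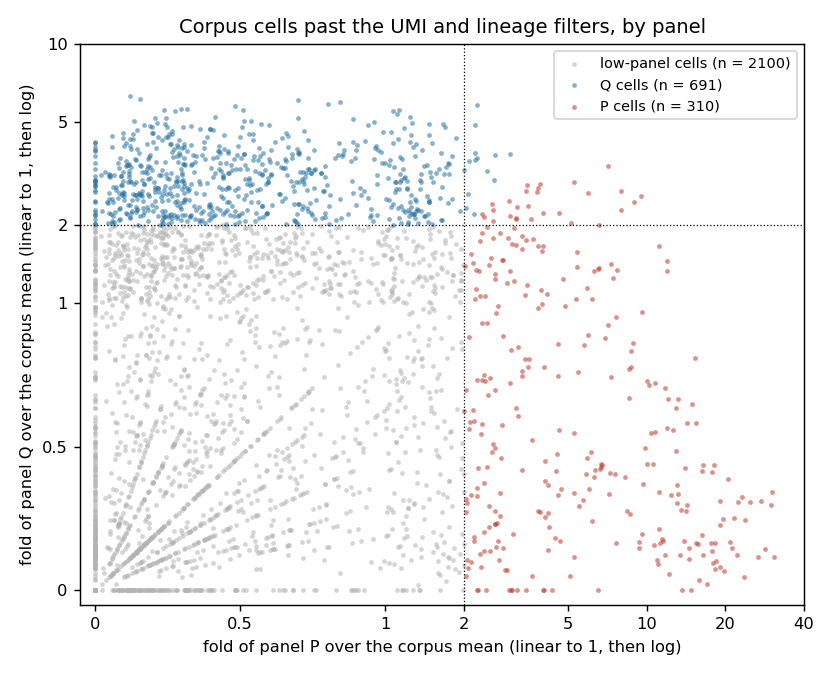
Each point is 1 of the 3101 corpus cells past the UMI and lineage filters; the axes give the fold of panel P and of panel Q over the corpus mean, linear up to 1 and logarithmic above, and dotted lines stand at 2. P cells (red, n = 310) run from a fold of 2.00 to 30.7 of panel P, and 28 of them also lie above 2 for panel Q.

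The panel genes were also found in corpus cells of other types. In the 196 corpus cells that the filter left out with Ptprc, a leukocyte gene, as the leading lineage gene, Spint4 stood at 456 CPM, Spint5 at 322 and Defb23 at 400. After each cell was thinned to 1000 UMIs, 31.1% of these cells held a Spint4 UMI (24.7 to 38.1%), as did 31.5% of Q cells (28.1 to 35.2%) and 87.1% of P cells (82.8 to 90.6%). Before thinning the shares were 61.7%, 66.6% and 92.3%, at median depths of 3471, 3419 and 2654.5 UMIs. The share in Q cells lay within the interval of the Ptprc cells. Corpus cells led by other lineage genes had thinned Spint4 shares of 24.1% for Foxi1 (18.6 to 30.3%), 24.8% for Krt5 (18.4 to 32.3%) and 44.5% for Dcn (41.7 to 47.5%). The part of free RNA in these shares was not tested. For Defb23 the thinned shares were 27.6% in Ptprc cells, 56.7% in Q cells (52.9 to 60.5%) and 97.1% in P cells, with unthinned shares of 55.6%, 83.2% and 99.7%, so that Q cells stood above the Ptprc cells for this gene. Defb29 was found in 5.61% of thinned Ptprc cells, 9.55% of Q cells and 62.3% of P cells, and unthinned in 16.3%, 28.2% and 80.3%. Counted together, 159 of the 310 thinned P cells held 4 of the 5 panel genes, 28 held all 5 and 100 held 3, while 82 of 196 thinned Ptprc cells held none.

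In the cells with most Dcn, a fibroblast gene, Spint4 was at 2328 CPM, above the Ptprc cells. That group contained cells that met the panel rule and were left out by the lineage filter alone: 92 cells in all, of which 62 had over 2 UMIs of Dcn, 13 of Krt5, 7 of Foxi1 and 2 of Ptprc, with a median of 4296.5 UMIs per cell against 2654.5 in P cells. Because the filter counts UMIs rather than a share, it removed deeper cells more readily. A limit of 5 lineage UMIs per 10000, chosen after the data were seen, gave 252 P cells.

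**Figure D2:**
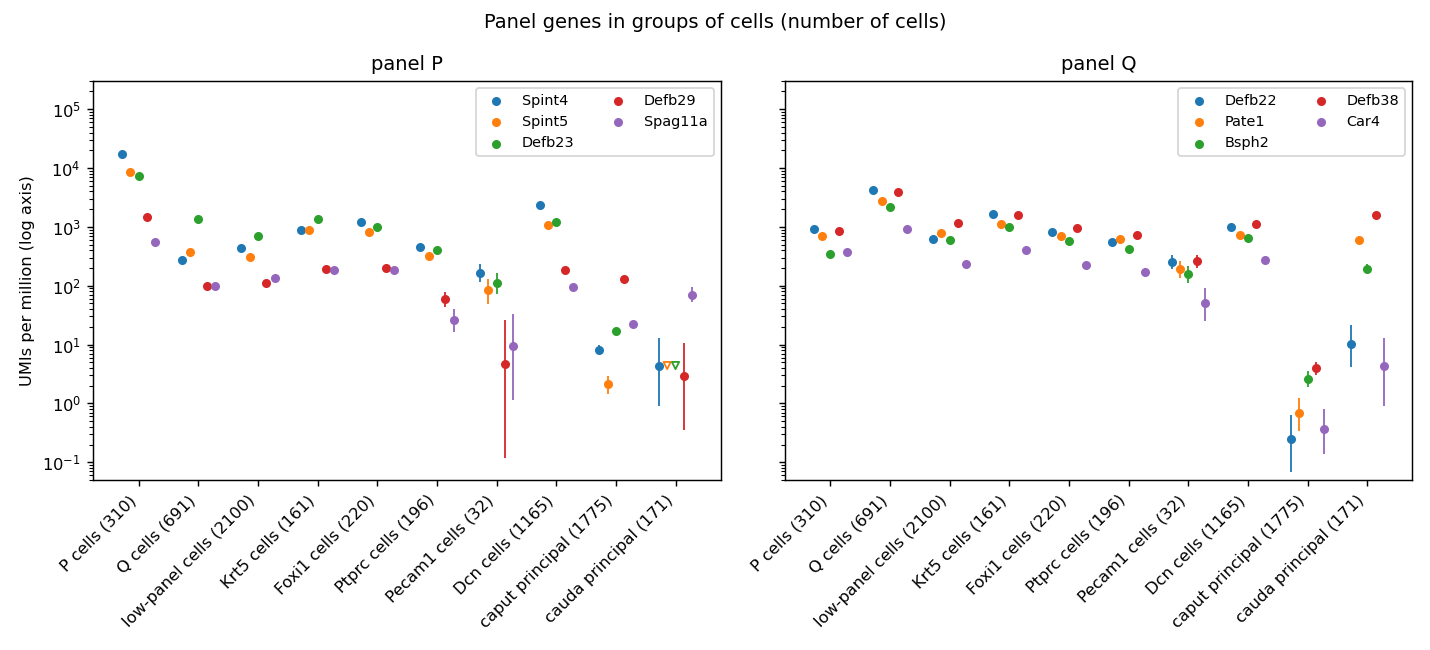
CPM (log axis) of the 5 genes of panel P (left) and panel Q (right) in groups of cells, with the number of cells in brackets; bars are exact 95% Poisson intervals and open triangles mark the level of 3 UMIs for a gene with no UMI. Spint4 stands at 17340 in P cells, 278 in Q cells, 440 in low-panel cells and 456 in Ptprc cells of the corpus, and at 8.16 in caput and 4.40 in cauda principal cells.

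The P cells carried markers of epithelium. The 8 epithelial genes (Epcam, Cdh1, Krt8, Krt18, Krt19, Cldn3, Cldn7 and Elf3) summed to 3054 CPM in P cells and 2451 in Q cells, against 775 in Ptprc cells, and none of them was at 0. The lineage filter capped Krt5, Foxi1, Ptprc, Pecam1 and Dcn in P cells, and the groups named after these genes held most of them, so that the next sums are a description of the filter. The 10 basal cell genes summed to 109 CPM, against 1708 in Krt5 cells, with Col17a1 and Aqp3 at 0. The clear cell genes summed to 320 CPM against 4503 in Foxi1 cells, the 11 fibroblast genes to 741 against 28769 in Dcn cells and the 12 macrophage and monocyte genes to 261 against 11681 in Ptprc cells. Of lists without a filter gene, the 8 smooth muscle genes summed to 72.4 CPM with Tagln and Actg2 at 0, and the 7 ciliated cell genes to 14.3 CPM with Ccdc153, Tmem212 and Dynlrb2 at 0. The 5 red cell genes summed to 11781 CPM, against 90637 in low-panel cells and 4663 in Q cells. P cells had a median of 1078 detected genes and 3.97% mitochondrial UMIs, and Q cells 1255 genes and 4.59%. The 10 deepest P cells gave 18.4% of all P cell UMIs.

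The P cells were not alike, and the panel genes did not move as one. Spint4 had the most UMIs of the 5 genes in 189 P cells, Defb23 in 69, Spint5 in 37, Spag11a in 3 and Defb29 in 1, with ties in 11. Cells with a fold of panel P of 2 to 3 (n = 95) had Spint4 at 1720 CPM, those of 3 to 6 (n = 88) at 4621, those of 6 to 12 (n = 66) at 17452 and those of 12 and over (n = 61) at 41081. Defb23 stood at 4546, 5266, 7188 and 11602 CPM over the same bands. Spag11a went the other way although it belongs to the panel, with 1298, 551, 326 and 113 CPM. The bands were cut by the sum of the 5 genes, so that a cell low in 1 of them entered through the others, and these values are a description. Lcn5, a retinoid-binding lipocalin of the proximal duct and no member of a panel, was at 7507 CPM in the lowest band and at 2927, 2679 and 3677 CPM in the others. The bands thus differed in composition as well as in the amount of panel RNA.

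Cells at the threshold were like those of the lowest band. The 20 cells with a fold of 2 to 2.2 had Spint4 at 1130, Defb23 at 4287, Spag11a at 1521 and Lcn5 at 8980 CPM. The 30 cells just outside, with a fold of 1.8 to 2, had Spint4 at 838, Defb23 at 3571, Spag11a at 1300 and Lcn5 at 10517 CPM. No gap in these values separated members from the next cells.

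Each panel gene was also read in cells chosen without it, with the other 4 genes and the same rule. Without Spint4 in the panel 398 cells were chosen, of which 291 were P cells, and Spint4 in them was 46.8-fold its level in Q cells (44.1 to 49.6). The corresponding ratio was 19.1 for Spint5 (322 cells), 14.7 for Defb29 (308 cells), 5.46 for Defb23 (275 cells) and 3.76 for Spag11a (291 cells). The 5 genes were put together in 1 panel with earlier results of these data known, so that these ratios describe the panel and are no independent check of it. Cells and free RNA of 1 library underlie all 5 values.

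Outside the panels, other inhibitors and defensins were found on both sides of the comparison of P with Q cells, beside genes of many other kinds. A gene was counted where its CPM ratio was at least 3, the interval of the ratio excluded 2 and the higher group held at least 100 UMIs. Of 4182 genes with enough UMIs in either group, 45 were higher in P cells (1.08% of the genes) and 51 higher in Q cells (1.22%), the 10 panel genes left out. The median log2 ratio of P over Q cells over 9977 genes was 0.13, so that a ratio near this value is the ordinary case. With TMM scaling, which sets that median to -0.10, 33 genes were higher in P cells and 73 in Q cells, 31.1% in place of 46.9% towards P cells. With a minimum of 20 UMIs the counts were 151 and 70 (68.3% towards P cells), and with no minimum 290 and 70 (80.6%). A minimum in UMIs is a higher level in the P cells, which held 1395078 UMIs, than in the Q cells with 4410098. The counts were 57 and 38 with Spint4 left out of panel P and 51 and 44 with a fold of at least 1.5, so that no direction is read from their balance. The cells were chosen in this contrast, and the counts are a description.

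Among protease inhibitors, Spink11, a Kazal domain gene, stood at 5582 CPM in P cells and 262 in Q cells, 21.3-fold higher (20.03 to 22.69). Spink12 stood at 791 against 34.2 CPM, 23.1-fold higher. Of 11 measured Kunitz and Kazal genes outside the panels, Spink2, Spink11 and Spink12 passed the size rule towards P cells, and Spint3 and Spink13 towards Q cells, with a median log2 ratio of 0.08, or -0.15 with TMM scaling. Spint3, a Kunitz relative of Spint4 and Spint5, was at 778 CPM in P cells and 2688 in Q cells, 3.45-fold higher in Q cells. Spink8, the most abundant inhibitor in P cells at 23462 CPM, was at 22192 CPM in Q cells, close to the same level. Of 13 measured WAP domain genes none passed towards P cells and Wfdc6a and Wfdc16 passed towards Q cells, with a median of -0.58.

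Among beta-defensins the direction was mixed as well. Defb30 stood at 4587 CPM in P cells and 142 in Q cells, 32.3-fold higher (29.7 to 35.1). Defb21 was 26.6-fold higher, at 663 against 24.9 CPM, and Defb15 21.4-fold higher, at 87.5 against 4.08 CPM. Defb14, Defb26, Defb40 and Defb43 passed towards Q cells, Defb43 at 879 against 2909 CPM and Defb40 at 214 against 911 CPM. The 26 measured members outside the panels had a median log2 ratio of -0.39, with 12 of them above a ratio of 1. With Spint4 left out of panel P, that median was 0.13.

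Several secreted carrier and enzyme genes were also higher in P cells than in Q cells. Lcn5 reached 4243 CPM in P cells and 170 in Q cells, 25.0-fold higher (23.1 to 27.0), with a median of 12.5 and a range of 0 to 329 UMIs per 10000 over P cells. Gc, the vitamin D binding protein of plasma, had the largest ratio of the genes counted outside the panels, 50.1 (29.3 to 93.2), on 222 and 14 UMIs. Agt, angiotensinogen, was 9.58-fold higher, and Pla2g7, the secreted phospholipase that inactivates platelet-activating factor, 11.95-fold higher. Clu, clusterin, a sperm-binding chaperone, stood at 3272 against 363 CPM. Like Lcn5, it was highest in the P cells with a fold of panel P of 2 to 3. Clu stood there at 4518 CPM, against 3500 CPM at a fold of 12 and over. Membrane and secretory pathway genes were also among the 15 with the largest ratios: Ap1s2, a subunit of the clathrin adaptor of the Golgi, 28.5-fold; Muc15, a membrane mucin, 22.1-fold; Adgrg2, an adhesion receptor of the efferent and proximal duct, 11.7-fold; and Man1a, a Golgi mannosidase, 10.5-fold. Cited1, a transcriptional coactivator, was 17.3-fold higher and Plac8 10.5-fold.

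Towards Q cells the largest ratios were smaller. B3galt2, a galactosyltransferase, was 9.33-fold lower in P cells (4.20 to 25.8), on 6 and 177 UMIs. Erich6 was 6.53-fold lower, Slc52a3, a riboflavin transporter, 6.10-fold, Mme, the peptidase neprilysin, 5.88-fold and Dapl1 5.52-fold. Some enzymes of steroid and lipid metabolism were in this direction too, with Cyp17a1, the 17-hydroxylase and lyase of steroid synthesis, 4.90-fold lower in P cells, the aldo-keto reductases Akr1c12 and Akr1c13 4.70-fold and 4.71-fold and Enpp2, which makes lysophosphatidic acid, 4.55-fold. The list of steroid receptors and steroid enzymes, which did not hold these genes, had a median log2 ratio of -0.11. Of its 15 measured genes 6 had a ratio above 1, and Sult1e1 alone passed the size rule, towards Q cells. None of 20 cholesterol synthesis genes passed (median -0.27). Odam was 4.68-fold lower. Ltf and Ly6f, which mark principal cells of the cauda, stood at 84.6 and 333 CPM in P cells and at 368 and 1266 CPM in Q cells.

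**Figure D3:**
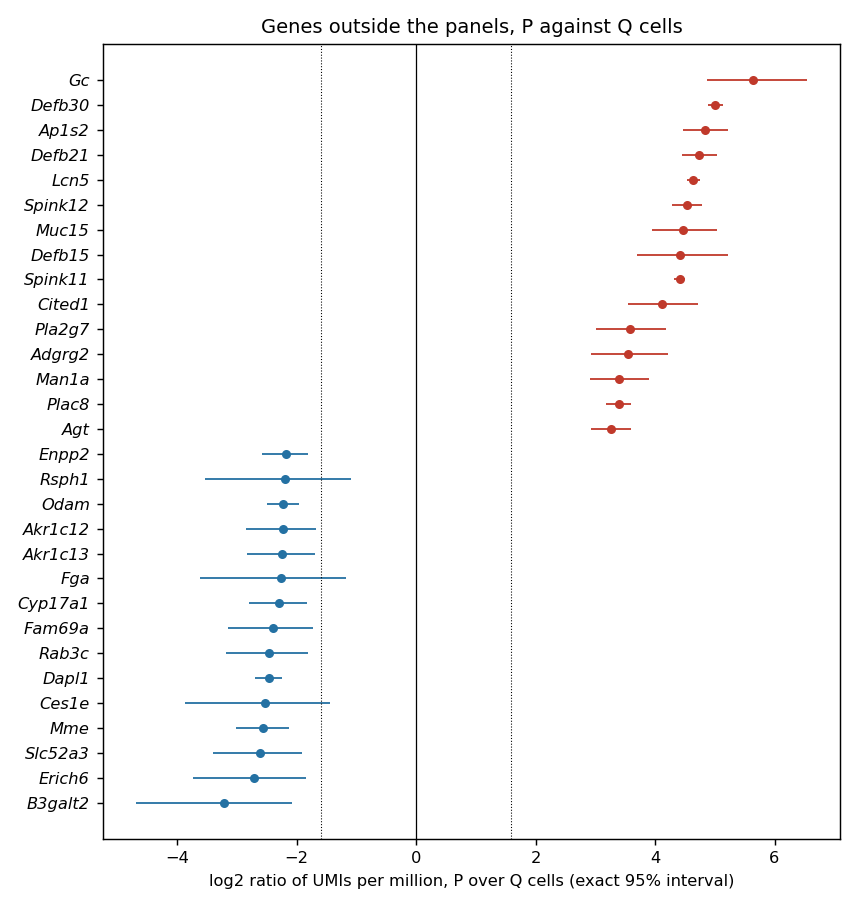
Log2 ratio of CPM, P over Q cells, for the 15 genes with the largest ratio in each direction outside the panels; bars are exact 95% intervals for counting error and dotted lines stand at 3-fold. Gc lies at 5.65 and Defb30 at 5.01 on this scale, and B3galt2 at -3.22.

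Of the 4182 genes, 1.08% passed the size rule towards P cells and 1.22% towards Q cells, so that a short list would ordinarily hold few or none. The median log2 ratio over all genes was 0.13. None of 35 cytosolic ribosomal protein genes passed in either direction. Their median log2 ratio was -0.33, and 1 of them had a ratio above 1. None of 21 chaperone and folding genes of the endoplasmic reticulum (median 0.24), 26 secretion and glycosylation genes (-0.07), 18 glutathione S-transferases (-0.50) or 17 glycolytic genes (0.37) passed either. Of the 18 glutathione S-transferases 6 had a ratio above 1. Of 15 measured transcription factor and signal genes of epididymal segments none passed, with a median of 0.42. Cdh16 was the 1 of 19 junction genes that passed, at 98.2 against 20.2 CPM, and Krt19 the 1 of 8 epithelial genes, at 82.4 against 12.9 CPM.

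Some marker lists of other cell types also summed higher in P cells than in Q cells, and others did not. The 5 red cell genes summed to 11781 CPM in P cells and 4663 in Q cells, the clear cell genes to 320 and 152, the fibroblast genes to 741 and 425 and the macrophage and monocyte genes to 261 and 205. Most of the clear cell difference lay in Atp6v1g3, which passed the size rule, at 234 against 74.6 CPM. Smooth muscle genes were close, at 72.4 and 66.0 CPM, as were endothelial genes, at 48.0 and 41.3 CPM. Ciliated cell genes were lower in P cells, at 14.3 against 30.4 CPM, and dividing cell genes at 287 against 376 CPM. Of 28 measured immediate early and heat shock genes, which dissociation of tissue can induce, 26 had a ratio above 1, their median log2 ratio was 0.83, and Gadd45b and Gadd45g passed. The part of these genes in the differences between P and Q cells was not tested. With cells over 2% haemoglobin UMIs left out, an alternative chosen after the data were seen, 86 genes passed in place of 96.

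On chromosome 2, in a stretch of 154 kb (chr2:152459055-152612729), defensin genes outside the panels stood on both sides between P and Q cells. Defb21, at a log2 ratio of P over Q cells of 4.73, and the predicted gene Gm17416, at 3.88, passed the size rule towards P cells, and Defb26, at -2.16, passed towards Q cells. Defb20 stood at -0.74 and Defb28 at -0.48. Defb36, at the far end, was at 18.6 CPM in P cells and 0.680 in Q cells, a ratio of 27.4 that rests on 26 and 3 UMIs (8.40 to 141). The panel genes of the stretch, whose directions the choice of cells fixed, were Defb23 at 2.45 and Defb29 at 3.90 for panel P and Defb22 at -2.20 for panel Q. In order along the chromosome the measured genes were Defb23, Defb20, Defb22, Defb26, Defb28, Defb29, Gm17416, Defb21 and Defb36. Defb19 and Defb45 lie between Defb21 and Defb36 and were not measured in this comparison. Defb28 was the most abundant gene of the stretch in both groups, at 8336 and 11639 CPM.

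The second stretch, of 148 kb (chr2:164569695-164718068), began with Spint3 at a log2 ratio of -1.79 and ended with the panel P genes Spint4 at 5.96 and Spint5 at 4.52, on which the P cells were chosen. Of the WAP domain genes between, Wfdc6a stood at -1.80, Eppin at -0.93, Wfdc8 at 0.58, Wfdc6b at -0.58, Wfdc16 at -1.95, Wfdc9 at -0.26, Wfdc10 at -0.40 and Wfdc11 at -0.92. Wfdc13, the nearest measured neighbour of Spint4, was among the most abundant genes of both groups, at 7830 CPM in P cells and 9266 in Q cells, a log2 ratio of -0.24. Of the genes in this stretch outside the panel, Spint3, Wfdc6a and Wfdc16 passed the size rule towards Q cells and none passed towards P cells.

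**Figure D4:**
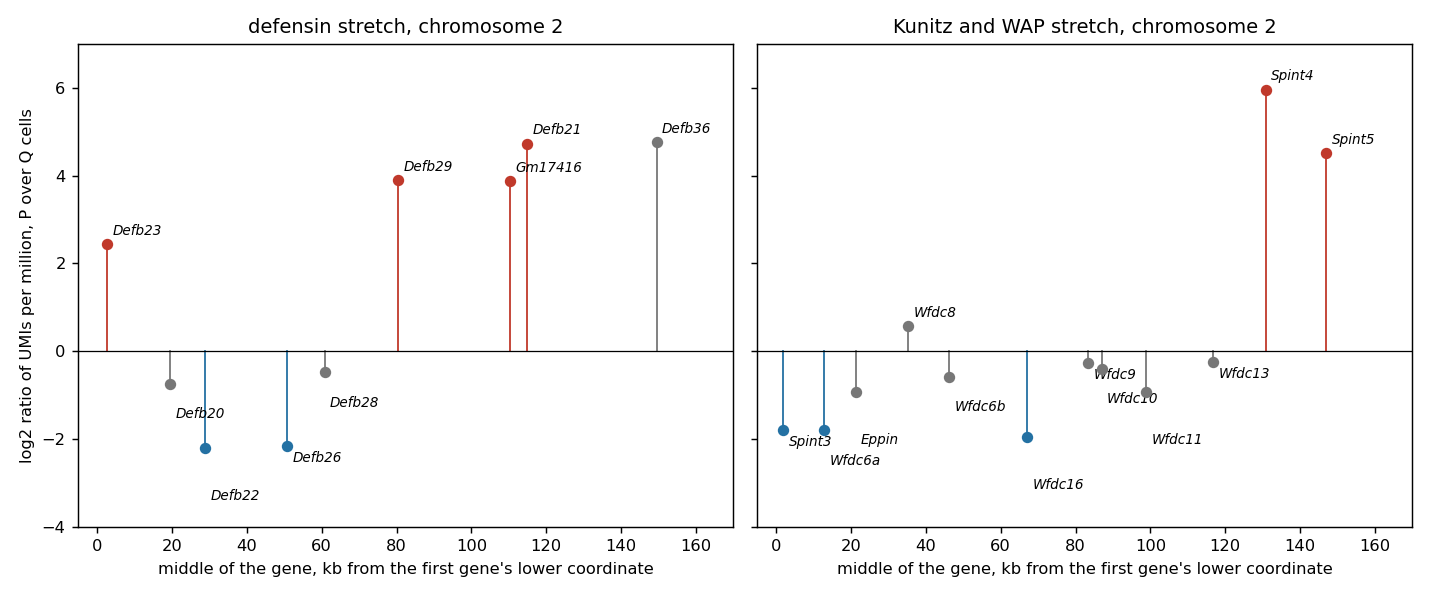
Log2 ratio of CPM, P over Q cells, of the measured genes in 2 stretches of chromosome 2, by the distance of the gene's middle from the lower coordinate of the first gene, in kb; red and blue mark genes past the size rule towards P and Q cells, grey the others. Defb23, Defb29, Spint4 and Spint5 belong to panel P and Defb22 to panel Q; outside the panels Defb21 (4.73) and Defb26 (-2.16) share the left stretch, and Spint3 lies at -1.79 in the right.

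Between regions, the 5 genes of panel P summed to 179 CPM in caput and 77.7 CPM in cauda principal cells. They summed to 2202 CPM in corpus Q cells and 1709 CPM in low-panel cells, and P cells were chosen on them. Defb29 went the other way in the caput, above its 99.3 CPM in corpus Q cells. In 1775 caput principal cells Spint4 stood at 8.16 CPM, Spint5 at 2.10, Defb23 at 16.9, Defb29 at 129 and Spag11a at 22.6. In 171 cauda principal cells Spint4 stood at 4.40 CPM on 3 UMIs, Defb29 at 2.93 and Spag11a at 70.4, and Spint5 and Defb23 had no UMI. The floor of 3 UMIs is 4.40 CPM in this group. No cauda cell passed the rule of the P cells, with the corpus means as reference, among the 504 past the filters. A limit set at 3 cells, which is not an exact interval, is a share of 0.595%. Over all 4925 cauda cells that limit is 0.0609%. In the caput 24 of all 4961 cells passed (0.484%, 0.310 to 0.719%). A difference between regions is also one between 2 libraries with their own free RNA and depth.

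Against caput principal cells, Wfdc13, Crisp1 and the defensins Defb9 and Defb11 were among the genes higher in P cells, and Spag11b, Defb25 and Defb48 among those higher in caput cells. The caput cells were chosen by the sum of 12 genes that include Lcn5, Lcn8, Gpx5 and Defb20. Of these Lcn8 and Gpx5 stood at 4.30 and 20.8 CPM in P cells, against 16742 and 48360 in caput cells, while Lcn5 stood at 4243 CPM in P cells and 951 in caput cells. By the same size rule 220 of 8159 genes were higher in P cells (2.7%) and 565 higher in caput cells (6.92%). The share towards P cells among them, 28.03%, was 17.1% with TMM scaling and 19.1% with cells weighted equally. With a minimum of 20 UMIs the counts turned to 674 towards P and 565 towards caput cells (54.4%), and with no minimum to 1469 and 565 (72.2%), so that no direction is read from their balance. The caput group held 16168978 UMIs, and the minimum of 100 is a far lower level there than in P cells. Wfdc13, a WAP domain gene, stood at 7830 CPM in P cells and 4.95 in caput cells, 1583-fold higher. This was the largest ratio in this direction among the counted genes, with panel genes, caput markers and clone-type names left out. Cwh43 was 939-fold higher on 243 and 3 UMIs (317 to 4584), Ltf, lactoferrin, 684-fold on 118 and 2 UMIs (185 to 5712), and Defb9 522-fold. Gpr82, Gldc, Defb11 and Pate2 followed with ratios of 316 to 482. Most of these genes were no trait of P cells within the corpus. In Q cells Wfdc13 stood at 9266 CPM, Cwh43 at 506, Ltf at 368, Defb9 at 389, Gpr82 at 530, Defb11 at 2939 and Pate2 at 746. Each of these levels was above that in P cells, while Gldc was lower, at 83.9 CPM against 117 in P cells. Crisp1, a sperm-coating protein, was at 7230 against 71.4 CPM. In the other direction Spag11b, the paralog of Spag11a, stood at 23842 CPM in caput cells and 2.15 in P cells, on 3 UMIs there, a ratio of 11087 (3794 to 53762). Defb25 and Defb48 were 1624-fold and 1295-fold higher in caput cells. On 1 to 3 UMIs in P cells, Teddm1a was 2959-fold higher (1012 to 14349), Ly6g5b 2602-fold (467 to 102762), Ly6g5c 2546-fold (705 to 21024), Defb18 2303-fold (638 to 19017) and Ovch2 1331-fold (239 to 52581). Reads of Spag11b could be shared with Spag11a, the copy on which the P cells were chosen.

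Among 30 measured transcription factor and signal genes of the segments, 10 passed towards caput cells and 1 towards P cells, with a median log2 ratio of -0.53 against 0.13 over all genes. Of all 12863 genes with at least 20 UMIs in both groups together, 565 passed towards caput cells and 220 towards P cells. Etv5, an Ets factor of the initial segment, was at 106 CPM in caput cells and 0.717 in P cells on 1 UMI. Etv1 was at 50.5 CPM and on 1 UMI in P cells, and Ros1, the receptor needed for the initial segment, at 39.4 against 10.0 CPM. Pax2, a paired box factor of the duct epithelium, was the gene that passed towards P cells, at 78.8 against 9.90 CPM. Of 31 measured beta-defensin and Spag11 genes 11 passed towards P cells and 10 towards caput cells. Of 8 measured mitochondrially encoded genes 7 passed towards P cells, red cell genes summed to 11781 against 3650 CPM, and 4 of 10 measured fibroblast genes passed towards P cells. Smooth muscle genes summed to 72.4 CPM in P cells and 2453 in caput cells. The part of this RNA in the other ratios was not tested.

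Against cauda principal cells 105 of 1794 genes were higher in P cells (5.85%) and 49 higher in cauda cells (2.73%). With at most 5 lineage UMIs per 10000, chosen after the data were seen, the counts turned to 121 towards P and 149 towards cauda cells (44.8% in place of 68.2%), and with at most 5 lineage UMIs they were 128 and 110, so that no direction is read from their balance. Lcn5 stood at 4243 CPM in P cells and 7.33 in cauda cells (579-fold, 248 to 1783). Defb30 was 521-fold, Spink11 423-fold and Spink12 108-fold higher in P cells. Defb21, with no UMI in the cauda cells, was 151-fold higher against a floor of 3 UMIs in the group, with a lower limit of 122. Pcbd1 was 189-fold higher with 1 UMI in the cauda (33.7 to 7471). This comparison and that with Q cells share the P cells. Towards the cauda Serpine2, a serine protease inhibitor, was 87.1-fold higher (51.5 to 160), Spink5 20.3-fold, Ch25h 14.4-fold, Id1 13.1-fold, Defb40 11.6-fold, Smarca1 9.30-fold, Syn2 8.71-fold and Defb9 8.64-fold. The cauda group held 681906 UMIs, which limits these ratios, and its fibroblast genes summed to 2487 against 741 CPM, with Col1a1, Col1a2 and Col3a1 past the rule towards the cauda. The part of that RNA was not tested.

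The P cells differed widely in Lcn5. This gene had no part in choosing the P cells, although it is 1 of the 12 genes that chose the caput principal cells. It was at least 100 UMIs per 10000 in 46 P cells and under 20 in 187, with 77 between. This split was made after the data were seen, and 15 cells lay between 100 and 150 and 21 between 50 and 100, so that the groups are ranges and not types. The Lcn5-high cells had low Spint4, with a median of 5.90 UMIs per 10000 and a range of 0 to 779, against a median of 71.6 in the Lcn5-low cells. Spag11a was the reverse, with medians of 26.5 and 0 and summed levels of 2669 and 119 CPM. A P cell low in Spint4 had to reach the threshold through other genes of the panel, so that the rule bears on this opposition. Defb23 was close in both, with medians of 53.9 and 48.1 UMIs per 10000. Spint4 was highest between the 2 groups, at 32771 CPM in the 77 middle cells, against 7928 in Lcn5-high and 12475 in Lcn5-low cells, and Spint5 likewise at 12952 against 2779 and 8151 CPM. A fold of panel P of at least 6 was reached by 6 of the 46 Lcn5-high, 53 of the 77 middle and 68 of the 187 Lcn5-low cells. A second set of 49 low-panel cells also had Lcn5 of at least 100, at a median fold of 1.58, under the threshold of 2, and were left out of the P cells by it.

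Of 1095 genes with enough UMIs, 19 were higher in Lcn5-high than in Lcn5-low P cells (1.74%) and 20 higher in Lcn5-low cells (1.83%). Muc15 stood at 860 CPM in the Lcn5-high cells and 7.35 in the Lcn5-low cells, 117-fold higher (52.6 to 323). Defb15 was 106-fold higher, Man1a 35.2-fold, Defb21 31.9-fold, Spink2 27.3-fold and Cited1 22.9-fold. Rnase9, a secreted member of the ribonuclease A family made by the epididymis, stood at 9963 against 525 CPM, 19.0-fold higher, and Clu at 8893 against 1671. In the other direction Cwh43 was 10.7-fold higher in Lcn5-low cells, Ly6f 8.03-fold, Ptges, a prostaglandin E synthase, 7.05-fold, Spint3 5.22-fold and Eppin, an inhibitor that binds sperm, 4.98-fold. Defb30 and Spink11 differed less, at 11188 against 2367 CPM and 11098 against 3084 CPM, and Spink8 stood at 28829 and 21635 CPM. The 46 Lcn5-high cells gave 172 of the 238 Muc15 UMIs of all P cells, 104 of 122 for Defb15 and 121 of 153 for Man1a. With P cells restricted to a fold of at least 6, also chosen after the data were seen, the log2 ratio of P over Q cells moved from 3.39 to 1.27 for Man1a, from 4.42 to 2.26 for Defb15 and from 3.55 to 1.87 for Adgrg2. It rose from 5.01 to 5.21 for Defb30 and from 4.41 to 4.68 for Spink11.

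Among the Lcn5 ranges of the P cells, panel Q genes were lowest in the Lcn5-high cells, summing to 975 CPM. They summed to 1501 CPM in the middle cells, 4520 in the Lcn5-low cells and 14021 in Q cells. Mitochondrially encoded genes summed to 30544 CPM in Lcn5-high and 54907 in Lcn5-low cells, and clear cell genes to 135 and 369, macrophage and monocyte genes to 135 and 337 and red cell genes to 10458 and 14994. The part of this RNA in the split was not tested. Lcn8, Lcn9 and Lcn10, the other lipocalins among the caput principal genes, did not accompany Lcn5. In the wider lipocalin list, the 3 measured members without Lcn5 had ratios above 1 towards Lcn5-high cells. Their median log2 ratio was 0.49 and none passed the size rule. Of the 12 caput principal genes Lcn9, Lcn10, Cst8, Cst11, Cst12 and Rnase10 had no UMI in the Lcn5-high cells, and Lcn8 and Gpx5 were at 5.00 and 10.0 CPM, against 16742 and 48360 CPM in caput principal cells. The 3 of the 12 genes that were measured, Lcn5 left out, summed to 295 CPM in Lcn5-high and 140 in Lcn5-low cells. Of these 1 had a ratio above 1.

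**Figure D5:**
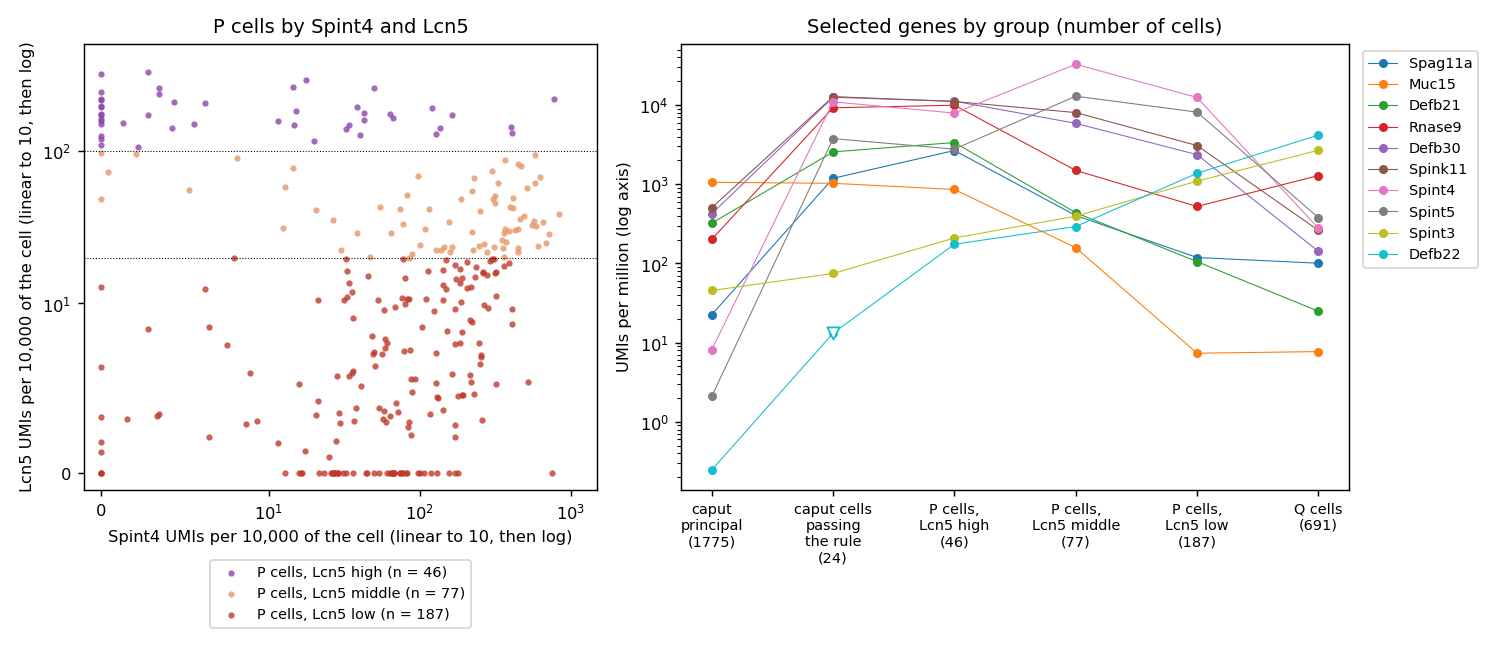
Left, Spint4 against Lcn5 UMIs per 10000 in each of the 310 P cells, both axes linear to 10 and logarithmic above, with dotted lines at 20 and 100; right, CPM (log axis) of 10 genes in 6 groups of cells, lines joining the values of 1 gene and an open triangle at the level of 3 UMIs for a gene with no UMI. Spint4 peaks at 32771 in the middle group, while Muc15 runs from 860 in Lcn5-high to 7.35 in Lcn5-low cells.

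The 24 caput cells that passed the rule were close to the Lcn5-high set in some genes and far from it in others. They had a median of 7490.5 UMIs. Rnase9 stood at 9249 CPM in them and 9963 in the Lcn5-high cells, Spink11 at 12794 and 11098, Defb30 at 12544 and 11188, Muc15 at 1028 and 860 and Lcn5 at 16094 and 18391. Spint4 stood at 10989 and 7928 CPM and Spag11a at 1191 and 2669. Gpx5 at 3317 and Lcn8 at 1309 CPM were far above the 10.0 and 5.00 CPM of the Lcn5-high cells, and below the 48360 and 16742 CPM of caput principal cells. Spag11b stood at 1643 CPM, had no UMI in the Lcn5-high cells and was at 23842 CPM in caput principal cells. Defb22 of panel Q had no UMI in the 24 cells, against 175 CPM in the Lcn5-high corpus cells and 4187 in Q cells. These 24 cells come from another library, with its own free RNA, and their values are a description.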

How the data were processed

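Single cells of 3 epididymal regions were captured with a Singleron microfluidic kit and sequenced, per the labels' protocols. The authors deposited a merged table of UMI counts, 24335 gene symbols by 14845 cells, as whole numbers that are not normalized. The submitters' processing notes name STAR 2.7.3a, UMI-tools and the build GRCm38.p6. No source used here says how the submitters called cells.

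From these deposited counts, UMIs were summed per group of cells and divided by the group's total (CPM), with exact Poisson intervals for levels, exact conditional binomial intervals for ratios and Clopper-Pearson intervals for shares, at 95%. Intervals cover counting error only. The upper limit of a share with no cell was set at 3 cells and is not an exact limit. A gene passed the size rule with a ratio of at least 3 whose interval excluded 2 and at least 100 UMIs in the higher group; a count of 0 was set to 3 UMIs. List medians used genes with at least 20 UMIs in both groups together. Named genes were the 15 largest ratios in each direction between P and Q cells, the 8 largest between regions, clone-type names left out, with the panels, list members and markers. Other genes named (those of the chromosome stretches, those that passed within a list and those of the Lcn5 comparison) were chosen after their values were seen. Caput principal cells had summed caput markers at or above the caput mean, and cauda principal cells cauda markers at least 2 times the cauda mean, after the same filters. Scrublet scores were computed for doublets and no cell was removed for them, except in an alternative. Members, panels and gene lists were chosen with earlier results of these data known. The interval code was tested on simulated counts. Python 3.11.15, numpy 2.4.6, scipy 1.17.1, scanpy 1.11.5 and, for TMM factors only, edgeR 4.0.16 in R 4.3.3 were used. Of the symbols, 16892 matched a GENCODE M21 gene name.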

Additional observations from a re-analysis of the deposited data

How the results depend on the processing

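With 1 library per region none of these values has a replicate check. No paired analysis was possible because each region has 1 library. Depth limits genes of few UMIs: the P cells held 1395078 UMIs, and fewer than 100 UMIs kept a gene from being counted. None of the ratios of the genes named by the rule changed sign under the alternatives tried, while the balance of counted genes did turn. Of 24 gene list medians of that comparison, 10 changed sign under at least 1 alternative, 6 of them under another scaling, weighting or thinning.

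The share of P cells, 6.25%, was 3.89% with a minimum of 2000 UMIs, 2.68% with no lineage UMIs, 7.502% with at most 5, 8.07% with a fold of at least 1.5, 4.34% with 3, 4.94% where the larger fold had to be 3 times the other, 5.28% with a pooled reference mean, 8.03% with Spint4 and 5.55% with Defb23 left out of the panel. Chosen after seeing the data were 5.08% with at most 5 lineage UMIs per 10000, 5.203% without cells over 2% haemoglobin and 2.56% with a fold of at least 6. The cells left out under each are fewer or more by the rule itself.

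The 96 genes between P and Q cells became 47 with no lineage UMIs, 29 with cells thinned to 1000 UMIs, 221 with at least 20 UMIs, 360 with no minimum, 235 at a ratio of 2 and 60 at a ratio of 4. The 785 genes against the caput became 259 when thinned, 1239 with at least 20 UMIs, 2034 with no minimum and 1256 at a ratio of 2. The 154 genes against the cauda became 58 with no lineage UMIs, 238 with at most 5, 270 with at most 5 per 10000, 54 when thinned, 424 with at least 20 UMIs, 495 with no minimum and 347 at a ratio of 2. The 39 genes of the Lcn5 split, itself chosen after seeing the data, became 21 with no lineage UMIs, 67 at a fold of 1.5, 21 at 3, 67 without Spint4 and 59 without Spint5 in the panel, 16 at a fold of 6, 10 when thinned, 75 with at least 20 UMIs, 120 with no minimum and 74 at a ratio of 2. Thinning and stricter filters leave fewer UMIs or cells, and looser minimums test more genes.

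TMM scaling shifted the median log2 ratio of all genes from 0.13 to -0.10 between P and Q cells, and the share of counted genes higher in P cells from 46.9% to 31.1%. Against the caput the median went from 0.13 to -0.22, and the share towards P cells from 28.03% to 17.1%, or 19.1% with cells weighted equally. Between P and Q cells Spint4 left out of the panel gave 60.0% and a fold of at least 6 gave 30.7%. The balance between P and Q cells, 45 against 51, turned to 57 and 38 with Spint4 left out, 51 and 44 with a fold of at least 1.5, 151 and 70 with at least 20 UMIs and 290 and 70 with no minimum. That against the caput, 220 and 565, turned to 674 and 565 with at least 20 UMIs and 1469 and 565 with no minimum. That against the cauda, 105 and 49, turned to 121 and 149 with at most 5 lineage UMIs per 10000. That of the Lcn5 split, 19 and 20, turned to 19 and 13 where the larger fold had to be 3 times the other, 32 and 27 without Spint5, 18 and 16 without the 10 deepest P cells, 9 and 1 when thinned, 47 and 28 with at least 20 UMIs, 92 and 28 with no minimum and 18 and 14 at a ratio of 4.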
